A study of Mus musculus with 2 samples.

Results

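The Egr, Nr4a and Ier genes are 10 immediate early genes, Egr1, Egr2, Egr3, Egr4, Nr4a1, Nr4a2, Nr4a3, Ier2, Ier3 and Ier5, and they were followed here in mouse neural stem and progenitor cells (NSPCs). Members were all non-control probes carrying one of these gene names on both arrays, which gave 12 probes on 21 spots for 10 of the 36493 gene names on the arrays. The cells were tertiary neurospheres, floating spheres at passage 2, derived from mouse embryonic stem cells and collected on day 18 after embryoid body formation began. Those labelled control for overexpression gave 1 array, and those overexpressing miR-153 gave the other. What the control cells carried, and how miR-153 was expressed, are not given in the sources used here. With 1 array in each of the 2 groups nothing was tested, and no difference below has a replicate check.

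Immediate early genes are transcribed within minutes of a signal such as a growth factor, calcium entry or stress, without new protein synthesis. Many are driven by serum response factor with its ERK-activated partners at CArG boxes, and by CREB at cAMP response elements (CRE). The Egr proteins are zinc finger transcription factors of GC-rich sites, and the Nr4a proteins are orphan nuclear receptors that can act without a ligand. The Ier proteins are a mixed group named for their rapid induction, in which Ier2 and Ier5 are relatives. In brain, genes of the Egr and Nr4a families are used as marks of recent neuronal activity.

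Levels are processed signals on a log2 scale, set relative to the 75th percentile of their own array, and a difference is always miR-153 minus control. A probe counted as measured when it was well above background, a flag of the scanner software. A gene counted as higher or lower at 2-fold or more, which is a rule of size. Of the 10 members, 8 were measured on both arrays. Of these 8, 5 were higher on the miR-153 array (Egr1, Egr2, Egr4, Nr4a1 and Ier2), 1 was lower (Ier3), and Nr4a2 and Ier5 lay between. Among all 20477 genes measured on both arrays, 9.22% were higher and 11.1% lower, so 20.3% were 2-fold apart either way. The median difference was 1.92 over the 8 members and -0.11 over all genes.

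Both mature arms of miR-153 are shown because its overexpression is the difference between the arrays that the labels give. With 1 array per group, effects of culture, collection or array cannot be told apart from it. The labels do not say which arm was overexpressed. Sequences are from RefSeq (GRCm38.p6, chromosome 12), with the seed, bases 2 to 8, in capitals.
miR-153-3p: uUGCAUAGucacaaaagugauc
miR-153-5p: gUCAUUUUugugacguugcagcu

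RefSeq promoter windows on GRCm38.p6, 250 bases before to 50 after an annotated start, were found for 7 members: Egr2, Egr4, Nr4a1, Nr4a2, Nr4a3, Ier3 and Ier5. The 250 bases before the start are shown for the members with windows that differed by at least 2-fold. Egr2 has 5 windows, and the one shown was picked for holding the most marked letters. In the first 3, which were higher on the miR-153 array, capitals mark CArG boxes and the CRE core CGTCA or its complement. Only Egr2 has a CArG box, and CRE cores also stand in the windows of Nr4a2 and Nr4a3, which were not higher. In Ier3, the member that was lower, no CArG box and no CRE core was found, and capitals mark the hypoxia core ACGTG. That core was in 19.6% of all windows, and also in windows of Nr4a3 and of Egr2, there not in the one shown. Hypoxia cores were marked in Ier3 only. The other form, GCGTG, also stands on either strand in the stretches of Egr4 and Nr4a1.
Egr2, chr10:67537619-67537868, plus strand: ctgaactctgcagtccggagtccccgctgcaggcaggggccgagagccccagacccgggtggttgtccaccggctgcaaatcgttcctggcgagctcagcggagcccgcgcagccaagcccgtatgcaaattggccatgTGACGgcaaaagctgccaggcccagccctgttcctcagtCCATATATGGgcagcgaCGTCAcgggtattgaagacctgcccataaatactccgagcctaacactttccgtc
Egr4, chr6:85513590-85513839, minus strand: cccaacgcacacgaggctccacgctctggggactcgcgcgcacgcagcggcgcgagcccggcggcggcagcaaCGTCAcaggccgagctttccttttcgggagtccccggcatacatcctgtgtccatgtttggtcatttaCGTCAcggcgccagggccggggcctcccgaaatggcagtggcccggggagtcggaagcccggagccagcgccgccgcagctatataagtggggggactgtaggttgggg
Nr4a1, chr15:101266596-101266845, plus strand: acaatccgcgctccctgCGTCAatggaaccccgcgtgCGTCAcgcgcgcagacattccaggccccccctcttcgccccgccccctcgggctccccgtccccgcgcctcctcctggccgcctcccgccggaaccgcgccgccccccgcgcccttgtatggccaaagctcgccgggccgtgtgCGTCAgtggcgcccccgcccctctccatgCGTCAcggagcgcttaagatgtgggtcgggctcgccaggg
Ier3, chr17:35821463-35821712, plus strand: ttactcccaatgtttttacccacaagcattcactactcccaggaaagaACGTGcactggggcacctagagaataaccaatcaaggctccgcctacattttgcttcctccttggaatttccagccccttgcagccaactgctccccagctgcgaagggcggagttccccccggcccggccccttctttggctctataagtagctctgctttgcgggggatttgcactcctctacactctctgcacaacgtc

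Of the 4 Egr genes, all 3 that were measured were higher on the miR-153 array, with a median difference of 3.61. Egr1 encodes the founding member of the family, an activator of many growth and activity genes. Its processed signal was 2646 in the control and 26122 with miR-153. In levels that was 2.60 and 5.57, a difference of 2.97 or 7.82-fold and rank 56 from the highest of 20477 genes.

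Egr2 (also Krox20) patterns hindbrain rhombomeres and drives Schwann cell myelination. Its probe lies on chromosome 10, 67004798 to 67004857 (mm9, plus strand), and begins at base 2826 of the transcript. It gave a signal of 70.1 in the control, and 1435 with miR-153. The control value was dim but well above background, and the difference of 4.02 (16.2-fold) was the largest of the members and ranked 8 of 20477 genes from the highest.

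Egr4, a family member expressed mainly in neurons, was measured on chromosome 6, 85461153 to 85461212 (mm9, minus strand). Its signal was 46.5 in the control and 716 with miR-153, a difference of 3.61 (12.2-fold) and rank 21 of all genes. The control signal of Egr4 was near the highest of the 308 negative control spots of that array, 43.3. Egr3, which acts in muscle spindle development and in activated lymphocytes and neurons, was not well above background on either array. Its signal was 6.07 in the control and 12.4 with miR-153, and no difference is given for it.

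**Figure D1:**
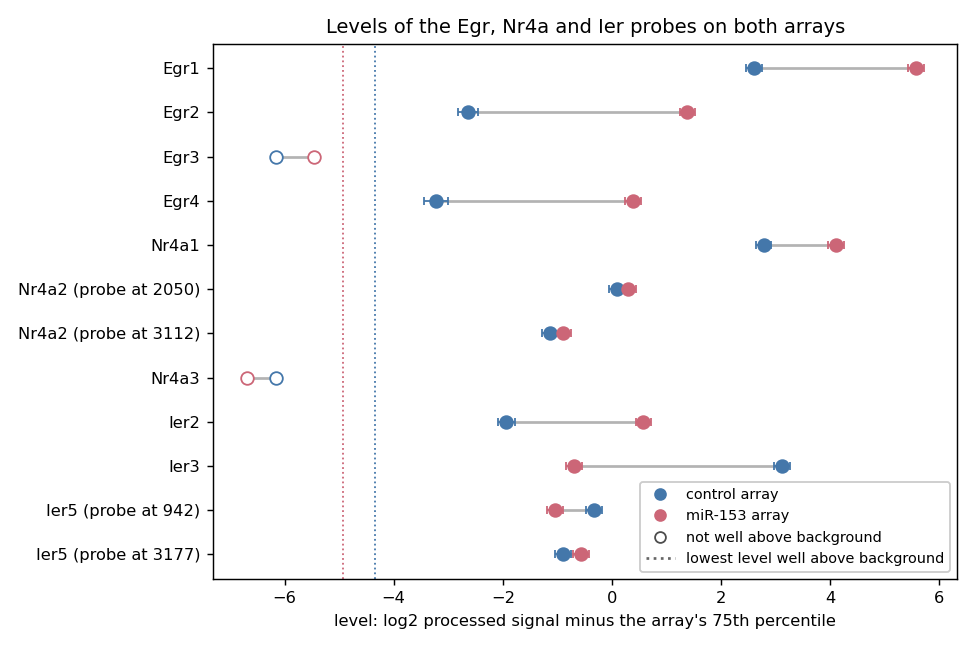
Levels of the 12 member probes, as log2 processed signal minus the array's 75th percentile, on the control array (blue) and the miR-153 array (red). Bars are the scanner's error model (SD, single spots well above background), open circles are probes not well above background, and dotted lines are the lowest levels well above background, -4.34 in the control and -4.94 with miR-153. Red lies to the right for Egr1, Egr2, Egr4, Nr4a1 and Ier2 and to the left for Ier3; levels of different probes are not comparable with each other.

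Among the nuclear receptors, Nr4a1 alone passed the 2-fold rule. Nr4a1 (Nur77) is induced by activity in neurons and by receptor signals in lymphocytes. Its probe on chromosome 15, 101105071 to 101105130 (mm9, plus strand), gave 2990 in the control and 9483 with miR-153. The difference was 1.33 (2.51-fold), and 5.07% of all genes were further out on the higher side.

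Nr4a2 (Nurr1), which is required to form midbrain dopamine neurons, had 2 probes on chromosome 2. The probe starting at base 2050 of the transcript gave 463 in the control and 676 with miR-153, a difference of 0.21. The probe starting at base 3112 gave 199 and 294, a difference of 0.22. Both differences were about as large as their scanner error of 0.20 and 0.21, so the 2 probes gave nearly the same small value. Nr4a3 (Nor1) had 1 probe printed on 10 spots, which gives the only spread of repeat spots among the members. After 2 outlier spots were left out, the other 8 ranged from 4.52 to 8.98 on the control array and from 4.003 to 7.36 on the miR-153 array. None of the 8 was well above background on either array (1 of the outlier spots, at 28.4, was in the control), and the ranges overlapped, so Nr4a3 was not detectable on either array.

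The Ier genes went in opposite directions. Ier2 (Pip92), a small nuclear protein gene, lies on chromosome 8, and its probe, 87186214 to 87186273 (mm9, minus strand), gave 114 in the control and 820 with miR-153. The difference was 2.51 (5.72-fold), rank 112 from the highest. Ier3 (IEX-1) encodes a short-lived membrane glycoprotein that affects cell survival and ERK signalling. Its probe on chromosome 17, 35959528 to 35959587 (mm9, plus strand), gave 3781 in the control and 341 with miR-153. It was 14.0-fold lower on the miR-153 array (-3.81), rank 22 from the lowest of all genes.

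Ier5, a relative of Ier2 with roles in the heat shock response, had 2 probes on chromosome 1, and they disagreed. The probe starting at base 942 of the transcript (156945765 to 156945824, mm9, minus strand) gave 346 in the control and 266 with miR-153, a difference of -0.71. The probe starting at base 3177 (156943530 to 156943589) gave 233 and 371, a difference of 0.34. No direction is given for Ier5. Neither value passed 2-fold, and their mean was -0.19.

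**Figure D2:**
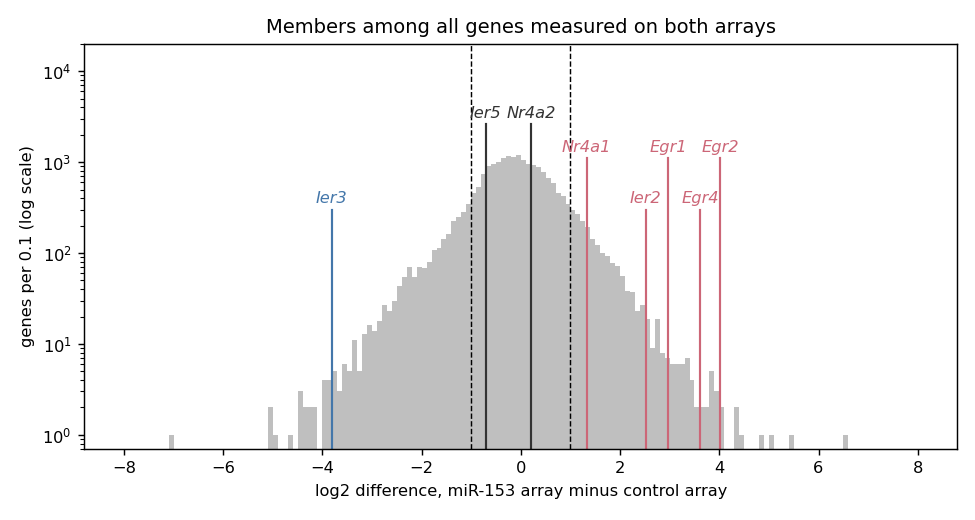
Differences of the 20477 genes measured on both arrays (grey, genes per 0.1 log2 unit, log axis), with the 8 measured members as vertical lines whose height has no meaning and dashed lines at 2-fold. Egr2 and Egr4 lie at 4.02 and 3.61 in the thin upper tail, Ier3 at -3.81 in the lower tail, and Nr4a2 and Ier5 near the centre.

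These sizes can be set against 3 kinds of technical error, none of which includes the spread between cultures. The scanner's error model, in which a dim spot has a larger relative error, gave an SD of 0.20 to 0.26 for the difference of each measured member. It was largest for Egr4, which was dim in the control. The median SD of the difference over repeat spots of a probe was 0.073 (258 probes with at least 5 spots). Different probes of a gene differed with an SD of 0.46 (3445 genes). The differences of the 5 higher members were 2.90 to 8.78 times that last SD and that of Ier3 was 8.31 times it, while Nr4a2 was at 0.46 times and Ier5 at 1.55 times. Egr1, Egr2, Egr4, Nr4a1, Ier2 and Ier3 had 1 probe each, so no second probe bears on them.

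Among the higher members, 3 were dim in the control (Egr2, Egr4 and Ier2). Among 3081 genes whose control level lay between those of Egr4 and Ier2, 13.1% were at least 2-fold higher. With normexp background correction, which draws in differences of dim probes, Egr2 was at 3.09, Egr4 at 2.39 and Ier2 at 1.93. Scaling on spike-in RNA moved the median of all genes from -0.11 to 0.13. Of the genes at least 2-fold apart, 64.6% were higher under that scaling and 45.5% without it. No member past 2-fold turned its sign or left the 2-fold rule in any alternative that measured it.

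**Figure D3:**
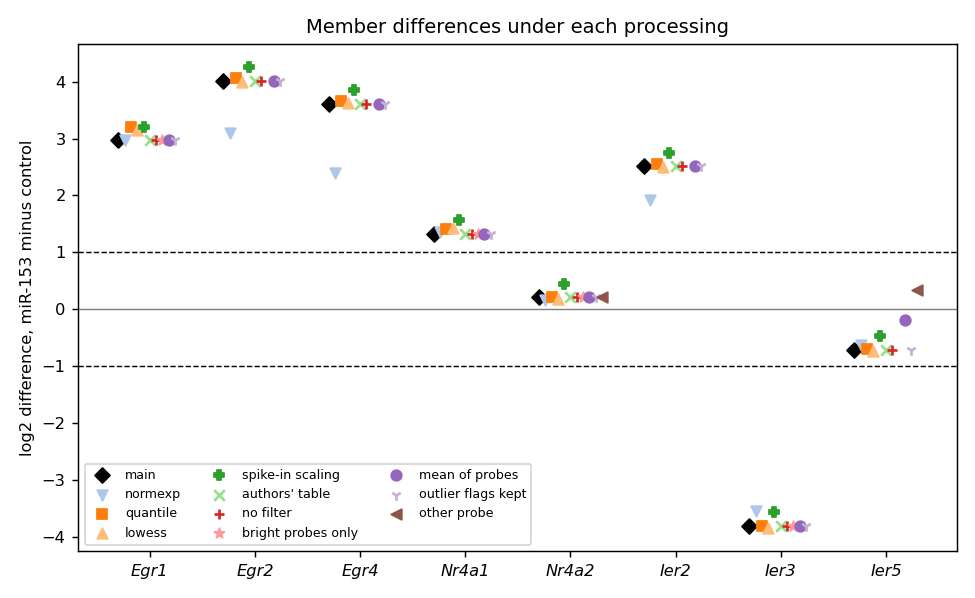
Log2 differences of the 8 measured members under the main processing (black diamonds) and each alternative, with dashed lines at 2-fold. Points of a gene lie close together except for Egr2, Egr4 and Ier2 with normexp (3.09, 2.39 and 1.93) and for Ier5, which runs from -0.73 to 0.34 across settings and probes.

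Other immediate early transcription factors lay on both sides of 2-fold. Of 22, 21 were measured, with 5 higher, 6 lower and 10 between, against 9.22% and 11.1% of all genes, and the median difference was -0.54. The higher were Npas4, Fosb, Fos, Junb and Mycn. Npas4, a factor induced by calcium entry in neurons, was at -2.30 in the control and 2.76 with miR-153. Its difference of 5.06 (33.3-fold) exceeded every member's, but it was dim in the control and was at 4.07 with normexp. The AP-1 genes Fosb (3.38), Fos (2.90) and Junb (1.72, or 0.92 with normexp) were also higher, and Mycn was at 1.56. The 6 lower were Bhlhe40 (-3.02), a repressor also induced by low oxygen, the AP-1 gene Fosl2 (-2.99), the stress factor Atf3 (-2.86), Klf4 (-1.60), Csrnp1 (-1.48) and Maff (-1.24).

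Immediate early genes that encode other kinds of protein also lay on both sides. Of 27, 25 were measured, with 5 higher, 5 lower and 15 between, and a median of -0.23. That was 20% each way, against 9.22% higher and 11.1% lower over all genes. The higher were Socs3 (2.68), which limits cytokine signalling, the kinase gene Sgk1 (2.12), Arc (1.91), a synaptic gene that Egr proteins can activate, Rgs2 (1.75) and Btg2 (1.51). The lower were Ccn2 (-2.32) and Ccn1 (-1.28), which encode matricellular proteins, the GTPase gene Gem (-2.16), Gadd45b (-1.28) and Nptx2 (-1.19, or -0.53 as the mean of its probes). Ptgs2 (prostaglandin synthesis) was detected with miR-153 alone and was at least 2.35-fold higher.

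On their brightest probes, none of the listed upstream regulators measured on both arrays reached 2-fold. These are RNA levels, and signalling activity was not measured. Of 22 upstream regulators, 21 were measured, with 0 higher, 0 lower and 21 between, and a median of -0.18. Over all genes, 9.22% were higher and 11.1% lower. The remaining gene, Mef2c, was detected in the control alone, at least 1.69-fold higher there. They ran from -0.83 (Elk3, a partner of serum response factor) to 0.73 (Mrtfa, its coactivator). As the mean of probes, 2 were at least 2-fold lower, Elk4 (-1.04, against -0.57 on its brightest probe) and Mef2d (-1.06, against -0.64). Srf, the factor of CArG boxes, was at 0.55 on its brightest probe and at -0.12 as the mean of its probes. Creb1 was at -0.02 and the ERK gene Mapk3 at -0.01. Of 12 genes that feed back on ERK signalling, 11 were measured, with 1 higher (Dusp4, 1.15), 1 lower (Spry4, -1.09) and 9 between. That was 9.09% each way, near the shares over all genes. Neither call held throughout, since with normexp 0 were higher and 0 lower, and under spike-in scaling 2 were higher (Dusp4 and Dusp1) and 0 lower, with Spry4 at -0.86. Dusp1, itself an immediate early gene, was at 0.77 (Dusp5 was detected with miR-153 alone, with no bound above 1) and Dusp6, a common readout of ERK activity, at 0.18.

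The corepressors of the Egr proteins were lower where the Egr genes were higher. Nab1 was at 0.85 in the control and -0.36 with miR-153, a difference of -1.21. Nab2, which Egr proteins themselves can induce, was at 2.21 and 1.13, a difference of -1.08. Both were short of 2-fold under spike-in scaling, at -0.98 and -0.85, and with normexp 1 of them, Nab1, was past it. The retinoid X receptors, which pair with Nr4a1 and Nr4a2, were at 0.47 (Rxra), 0.76 (Rxrb) and 0.23 (Rxrg) on their brightest probes. As the mean of probes Rxrg was at 2.35, past 2-fold, and Rxra at -0.38, so no direction is given for either. Of the 7 partners and corepressors, 0 were higher, 2 (28.6%) lower and 5 between, against 9.22% and 11.1% of all genes.

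**Figure D4:**
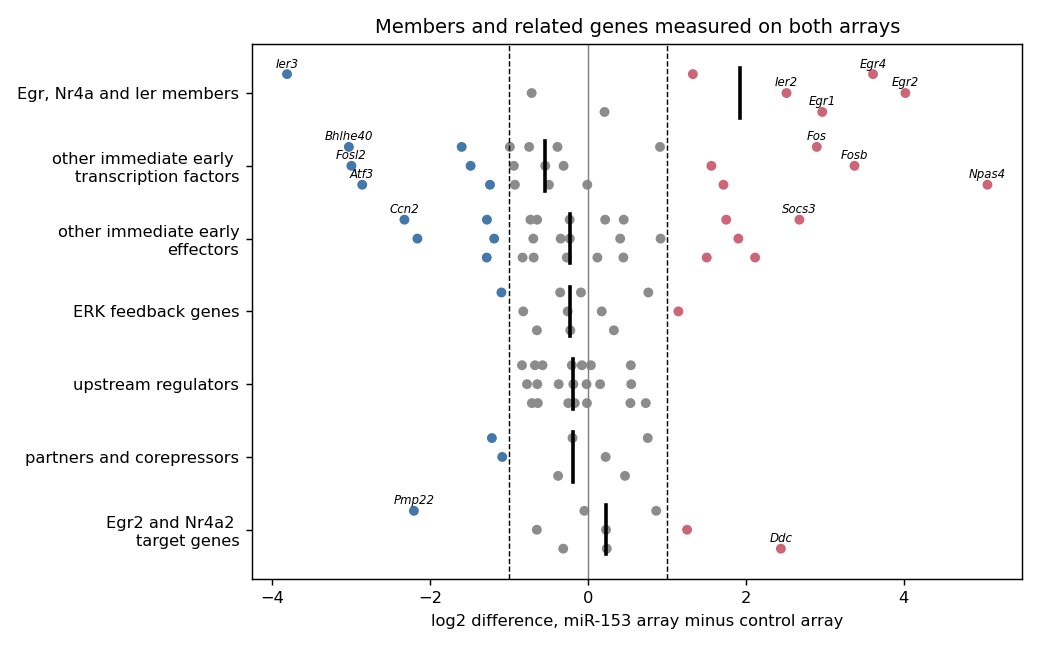
Log2 differences of the measured members and of 6 lists of related genes, with the median of each as a black bar, dashed lines at 2-fold, and red and blue for genes at least 2-fold higher or lower. Immediate early genes lie on both sides beyond 2-fold, and the 21 measured upstream regulators, each by its brightest probe, all lie between the dashed lines.

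Genes known as targets of Egr2 or Nr4a2 in other tissues showed no common direction. Of 13, 9 were measured, with 2 higher, 1 lower and 6 between, and a median of 0.23. That was 22.2% higher and 11.1% lower, against 9.22% and 11.1% of all genes. Epha4, a hindbrain target of Egr2, was higher (1.26, or 0.80 with normexp), and Ddc, of dopamine synthesis, was higher (2.44). The myelin gene Pmp22 was lower (-2.20, or -1.32 as the mean of its probes). Hoxb2 was detected with miR-153 alone, at a level (-4.39) under the lowest detected in the control (-4.34), so no bound is given. The hindbrain gene Hoxa2 and the dopamine transporter gene Slc6a3 were at background on both arrays. Th, the defining enzyme gene of dopamine neurons, was at 0.23.

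Cell type markers were read beside the members, since more cells of a type and more RNA per cell cannot be told apart in bulk RNA. The shares over all genes were 9.22% higher and 11.1% lower. All 8 progenitor markers were well above background on both arrays, with 1 higher (Sox1), 0 lower and a median of -0.27. Of 6 neuron markers, all measured, 2 were higher (Dcx at 2.97 and Tubb3 at 2.52) and 0 lower. The others were Map2 (0.84), Snap25 (0.76), Rbfox3 (0.75) and Syp (0.04). The summed linear level of the 6 went from 37.6 times the 75th percentile on the control array to 97.7 on the miR-153 array. Levels of different probes are not comparable, so such sums are weighted to the brightest probes and do not count cells. Of 5 oligodendrocyte markers 4 were higher, and the sum went from 19.7 to 33.4. Of 4 neural crest and Schwann markers 3 were higher. Of 4 fibroblast markers on the array 3 were higher, with a sum of 1.86 and 3.27. Of 4 astrocyte markers none passed 2-fold (sum 29.7 and 42.6), and 1 of 2 measured pluripotency markers was lower and the 1 measured of 3 endoderm markers higher. Their part in the differences of the members was not tested. For microglia, Aif1, Cx3cr1 and Ptprc were at background on both arrays, and so were Cdh5 and Tek for endothelium; the summed levels were 24.7 and 40.0 for microglia, mostly from Itgam (levels 4.54 and 5.27) with Csf1r (0.53 and 0.45), and 16.7 and 10.5 for endothelium, mostly from Kdr (4.05 and 3.37), with Pecam1 also detected on both. Sox10 is in both the oligodendrocyte and the neural crest list.

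The letters of the promoter windows were compared with all 32851 RefSeq windows of 300 bases. Members are counted by gene, through any of its windows, while the shares beside them are of windows. The share of all genes was somewhat higher for each motif searched. It was 1.81% for the CArG box, 23.0% for the CRE core, 21.8% for ACGTG and 35.2% for GCGTG. The CArG box, searched by its consensus on both strands, was found in 1 of the 7 members with a window, Egr2, against 1.63% of all windows. In the Egr2 window shown it begins 72 bases before the start, and a CArG box also stands in 3 of the other 4 Egr2 windows, of which 2 overlap the one shown. The CRE core CGTCA was found on either strand in 5 of the 7 (Egr2, Egr4, Nr4a1, Nr4a2 and Nr4a3), against 20.8% of all windows, and 4 copies each stood in the windows of Nr4a1, Nr4a2 and Nr4a3. It was present in members that were higher, between and not detected alike. The full CRE TGACGTCA was in 0 of the 7, against 1.79% of windows, and contains the core on both strands.

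Of the other letters searched, the Egr site GCGGGGGCG was found in the window of Nr4a1 only, 60 bases before the start (2.91% of windows), and the Egr site GCGTGGGCG in none of the 7 (0.612%). The Nr4a site AAAGGTCA was in none of the 7 (1.51%). The hypoxia core ACGTG was in the windows of Egr2, Nr4a3 and Ier3 (19.6%), its other form GCGTG in those of Egr4, Nr4a1, Nr4a2 and Nr4a3 (32.4%), and TATAAA in that of Nr4a2 (13.6%). Across genes measured on both arrays with a window, the CRE core was in 33.0% of 1172 higher genes, 31.4% of 1032 lower genes and 34.8% of 8634 genes between. The CArG box was in 2.13%, 1.94% and 1.55% of them.

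**Figure D5:**
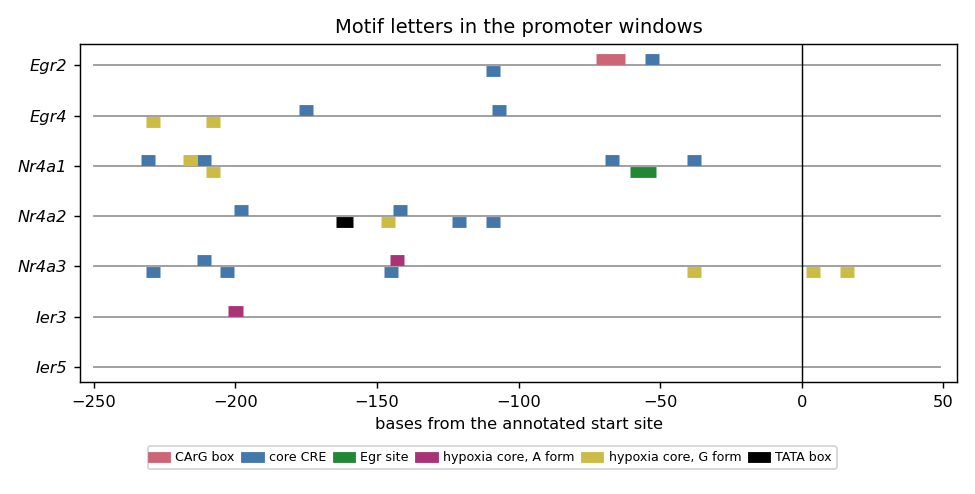
Positions of motif letters in the promoter windows of 7 members, in bases from the annotated start site, with the gene strand above each line and the other strand below. CRE cores lie in all Egr and Nr4a windows shown, the 1 CArG box drawn lies in Egr2, and the windows of Ier3 and Ier5 hold neither.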

How the data were processed

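RNA from 1 control and 1 miR-153 sample was labelled with cyanine-3 from 50 ng and hybridised to 1-colour Agilent arrays on the same slide, per the labels' protocols and the file headers. The values used are intensities that the authors deposited, read by Agilent's Feature Extraction software, version 10.7.3.1 in the submitters' processing notes, and background-subtracted and detrended within each array per the file headers. The deposited flags, given as other columns, mark spots that are outliers or well above background. The authors' series table was that processed signal over a fixed number per array, 381 in the control and 485 with miR-153, so its scale is linear and its direction kept, without centring (medians 0.0662 and 0.0614).

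Main levels were processed signals in log2 units relative to the 75th percentile of 59305 non-control spots, which was 435 in the control and 549 with miR-153. Well above background were 52.5% and 55.6% of these spots, and 0 spots were saturated. Outlier spots on either array (229) were left out, repeat spots averaged on the log2 scale, and the brightest probe stood for a gene. Of 55674 probes, 26296 (47.2%) were named through accessions matched to RefSeq genes of GRCm38.p6, the rest by the file. A gene well above background on one array only got a bound against the lowest level well above background on the other. With 1 array per group, the spread between samples is unknown.

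Members and lists were chosen with earlier results of these data known. Listed genes were named when among the 4 largest past 2-fold in their list or tied directly to the members; further listed genes were picked with their values in view, where a count was small. The gene table was tested on simulated data with differences planted in genes of mean level above the 75th percentile. Detection flags were copied from the control array. That test therefore does not bear on detection or on dimmer members such as Egr2, Egr4 and Ier2. The 9 alternatives used limma 3.58.1 in R 4.3.3 for normexp (offset 50), and statsmodels 0.14.6 for lowess. Most listed genes enter the counts and medians without being named, and some results are not reported here. CArG boxes were read as the consensus on both strands.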

Additional observations from a re-analysis of the deposited data

How the results depend on the processing

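Sign and side of 2-fold were kept by Egr1, Egr2, Egr4, Nr4a1, Ier2 and Ier3 in every alternative that measured them, with ranges of 2.97 to 3.20 (Egr1), 3.09 to 4.26 (Egr2), 2.39 to 3.85 (Egr4), 1.33 to 1.57 (Nr4a1), 1.93 to 2.75 (Ier2) and -3.85 to -3.54 (Ier3). Bright probes only left 4 measured members, 2 of them at least 2-fold higher, with subfamily medians of 2.97 (Egr) and -3.81 (Ier), because Egr2, Egr4, Ier2 and Ier5 were below the level it asks for. The Egr median was 2.98 with normexp, the Nr4a median 0.21 with no filter on dim probes, where Nr4a3 enters, and the Ier median -0.19 with the mean of probes, through Ier5. Over all genes, the count higher was 1199 with normexp, 3607 with no filter and 862 with bright probes only, and the count lower 4371 with no filter and 1043 with bright probes only, against 1888 and 2265. Under spike-in scaling the list medians of other effectors, ERK feedback genes, upstream regulators and partners turned to 0.0072, 0.015, 0.054 and 0.044. A value was taken as unmoved within 0.46, the SD between probes. No paired analysis was possible because each group has 1 array. Chosen after seeing the data, a window of only the 250 bases before the start gave the CRE core in 17.8% of windows and the CArG box in 1.47%. Signal over background limits Egr3 and Nr4a3.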

Other observations

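Counted together, the members and the other immediate early genes of both lists were 59 genes, of which 54 were measured on both arrays. Of these, 15 (27.8%) were at least 2-fold higher, 12 (22.2%) at least 2-fold lower and 27 between, with a median of -0.29, against 9.22% and 11.1% of all genes. Differences of 2 or more on the log2 scale were found for 9 of them upward and 6 downward, against 1.44% and 2.39% of all genes. The lists were chosen with earlier results known, so these shares describe the genes named and no more.

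By difference alone, and among RefSeq-matched genes of at least median level, the genes nearest to Egr2 (4.02) were Tal1 (4.02), Asic4 (3.93) and Insm1 (3.74), and among those nearest to Ier3 (-3.81) were P4ha2 (-3.96) and Chst7 (-3.60). Over 2 arrays this likeness is a single number.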
